A study of Homo sapiens with 19 samples.

Results

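The genes described here encode the cytoplasmic translation initiation factors of the human cell line U2OS, together with their direct regulators. They are the protein-coding genes of the RNA table whose symbol starts with EIF1, EIF2, EIF3, EIF4, EIF5 or EIF6. Of 24198 genes in the table, 55 met this rule, with 121 transcript rows between them. The rule reads gene symbols and no level or peak, but the family was chosen with earlier results of these data known. Of the 55 genes, 50 had a mean RNA level of at least 1 FPKM over both libraries and no failed estimate, and these are compared below with the 11671 genes of the table that met the same conditions.

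U2OS is an established osteosarcoma line. The series asked where EP400, the catalytic subunit of a chromatin remodelling complex that exchanges histone variants, is bound, and what changes on chromatin and in RNA when it is depleted. The EP400 siRNA group consisted of cells transfected for 72 hr with siRNA against EP400, and the mock group of cells transfected for 72 hr with siRNA against GFP. Each group gave 1 RNA-seq library and 1 chromatin immunoprecipitation (ChIP) list each for RNA polymerase II (Pol II), the Mediator subunit MED26 and the histone variants H3.3 and H2AZ. Lists for the histone marks H3K18ac and H3K4me1 came from mock cells alone, and 3 EP400 immunoprecipitations from U2OS cells came as 1 list. All cells were of this 1 line, in the same growth medium.

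Translation starts when eIF2 brings the initiator tRNA to the small ribosomal subunit, on which eIF1, eIF1A, eIF3 and eIF5 assemble. The complex eIF4F, made of the cap-binding protein eIF4E, the scaffold eIF4G and the RNA helicase eIF4A, recruits the mRNA through its cap. After the start codon is found, eIF5B joins the large subunit and eIF2 is recycled by its exchange factor eIF2B. Kinases that phosphorylate eIF2 alpha slow this recycling under stress, and 4E-binding proteins keep eIF4E away from eIF4G.

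The promoters of 5 members are printed because these genes held the widest EP400 peaks with a single promoter entry (EIF3B, EIF4B, EIF4A2), or the RNA ratios at the high and low end of the eIF3 complex (EIF3D, EIF3K). Each runs from 250 bases before to 20 bases after the annotated start in RefSeq on GRCh38.p14, 5′ to 3′ on the gene's strand. The capitals mark exact matches on either strand to CCAAT (the NF-Y box), GGGCGG (the GC box), CACGTG (the E-box) and TATAAA (the TATA box). The peaks below are in hg19, so no position was carried from one build to the other.
EIF3B (chr7:2354577-2354846, plus strand): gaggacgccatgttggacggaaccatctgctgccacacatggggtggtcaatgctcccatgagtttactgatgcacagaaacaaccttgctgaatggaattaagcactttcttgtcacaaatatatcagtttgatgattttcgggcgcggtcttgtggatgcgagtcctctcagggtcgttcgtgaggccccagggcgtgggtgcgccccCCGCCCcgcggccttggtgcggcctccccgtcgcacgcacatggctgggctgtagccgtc
EIF4B (chr12:53006206-53006475, plus strand): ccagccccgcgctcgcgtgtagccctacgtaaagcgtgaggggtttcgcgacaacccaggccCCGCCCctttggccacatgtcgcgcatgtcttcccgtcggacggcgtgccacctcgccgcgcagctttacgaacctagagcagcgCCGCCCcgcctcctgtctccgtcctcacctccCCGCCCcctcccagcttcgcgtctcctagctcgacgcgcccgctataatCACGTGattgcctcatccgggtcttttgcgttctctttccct
EIF4A2 (chr3:186783327-186783596, plus strand): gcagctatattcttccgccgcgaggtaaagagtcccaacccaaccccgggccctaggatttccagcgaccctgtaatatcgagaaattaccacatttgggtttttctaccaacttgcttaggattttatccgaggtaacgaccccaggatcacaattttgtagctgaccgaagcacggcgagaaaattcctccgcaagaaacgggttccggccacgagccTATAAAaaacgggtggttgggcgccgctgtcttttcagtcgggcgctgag
EIF3D (chr22:36529147-36529416, minus strand): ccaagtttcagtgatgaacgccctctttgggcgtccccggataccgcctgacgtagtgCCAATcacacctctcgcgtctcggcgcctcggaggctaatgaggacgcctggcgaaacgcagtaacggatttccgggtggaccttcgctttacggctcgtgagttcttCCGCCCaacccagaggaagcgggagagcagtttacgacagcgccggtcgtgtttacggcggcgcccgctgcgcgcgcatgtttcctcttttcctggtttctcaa
EIF3K (chr19:38618938-38619207, plus strand): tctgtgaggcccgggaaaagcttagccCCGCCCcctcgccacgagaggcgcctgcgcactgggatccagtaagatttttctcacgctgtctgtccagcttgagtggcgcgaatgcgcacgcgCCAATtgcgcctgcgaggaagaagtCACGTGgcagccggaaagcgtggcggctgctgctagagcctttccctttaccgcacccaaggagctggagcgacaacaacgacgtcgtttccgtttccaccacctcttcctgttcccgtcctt

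These 5 promoters differ in the motifs they hold. EIF4A2 had a TATA box and no GC box, whereas the other 4 had at least 1 GC box and no TATA box. EIF4B and EIF3K held an E-box, the sequence that MYC and related factors are known to bind. Over the 46 members with a promoter entry, 12 (26.1%) held an E-box, against 8.77% of the 27305 genes with an entry. The GC box was in 34 of 46 members (73.9%), against 48.3% of all genes. CCGGAAGT, the core that ETS factors recognise, was in 9 of 46 (19.6%), against 4.95%. CCAAT was about as frequent in the members (21 of 46, 45.7%) as in all genes (39.7%). TATAAA was in 2 members (4.35%), EIF4A2 and EIF4EBP3, against 14.0% of all genes. AAGATGGCG (the YY1 motif) was in 3 members (6.52% against 2.14%), GCGCATGCG (NRF1) in 2 (4.35% against 2.34%) and TCTCGCGA in 0, against 1.37%. The members' promoters were also richer in G and C, with a median of 65.0% against 58.7% over all promoters, and the part of base composition in these shares was not tested.

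In 9 of 46 members (19.6%) the annotated transcript began with a C followed by 4 pyrimidines, the form of a 5′ terminal oligopyrimidine tract, which is known from mRNAs of the translation machinery. Among all genes the share was 5.14%. The 9 genes were EIF2A, EIF2D, EIF2S3, EIF3D, EIF3F, EIF3K, EIF3M, EIF4A2 and EIF4B, and this search was added after the sequences printed above, 4 of which are among the 9, were seen. The strand of the promoter entries is used below to tell the start from the far end of a locus.

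RNA levels are given in FPKM, which corrects the fragments of a transcript for its length and for library size. EP400 itself, on chromosome 12 at 132434465-132565011, was at 2.28 FPKM in the EP400 siRNA library and 10.04 FPKM in the mock library (22.8% of mock; log2 ratio -1.75). With 1 library per condition no difference in RNA or peaks below has a replicate check, and no test was run. The log2 ratio is log2((EP400 siRNA FPKM + 1)/(mock FPKM + 1)), which understates differences of genes at low levels. The deposited FPKM of the rows used summed to 366796 in the EP400 siRNA library and 626424 in the mock library, and depth is unknown. Rescaling both libraries to equal sums moved the median log2 ratio of all 11671 genes to 0.48, against -0.20 as deposited. In RNA of a whole culture, fewer cells of a kind and less RNA per cell cannot be told apart. Of 8 mesenchymal and osteoblast lineage markers, 6 were at 1 FPKM or more in both libraries (sums of 1397 FPKM after EP400 siRNA and 1280 FPKM in mock), against 1 of 6 epithelial markers (sums of 12.8 and 70.6 FPKM) and 0 of 3 endothelial markers (0.198 and 0.437 FPKM). Single genes set these sums. In the lineage list VIM was higher after EP400 siRNA (1132 FPKM, against 618 FPKM in mock), while COL1A1 (60.8 FPKM after EP400 siRNA, against 376 FPKM in mock) and COL5A1 (6.83 FPKM after EP400 siRNA, against 42.2 FPKM in mock) were lower. In the epithelial list most of the difference was CLDN4 (10.9 FPKM after EP400 siRNA, against 63.4 FPKM in mock), and EPCAM was under 1 FPKM in both. Their part in the results was not tested.

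Initiation factor RNAs were mostly above their mock level after EP400 siRNA, while most genes of the table lay below theirs as deposited and above with equal sums. The median log2 ratio of the 50 members was 0.37, against -0.20 over all genes. A ratio above 0 was found for 34 of 50 members and 42.7% of all genes. At least 2-fold higher levels after EP400 siRNA were found for 6 of 50 members, against 6.11% of all genes. At least 2-fold lower levels were found for 1 of 50, against 22.9% of all genes. With the ratios centred on the median of all genes, the members' median was 0.57, with 12 members 2-fold higher (10.8% of all genes) and 0 lower (15.6%). With equal sums the members' median was 1.13, against 0.48 for all genes, with 30 members 2-fold higher (31.5%) and 0 lower (5.97%). The members' median lay above that of all genes on each of these scales. Centred within 10 groups of genes by the number of loci within 500 kb, a scale added after the data were seen and called density centring below, 12 members were 2-fold higher (8.70% of all genes) and 0 lower (10.9%). EIF5A2, at under 1 FPKM in mock, passed the filter on low values through its level after EP400 siRNA alone.

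**Figure D1:**
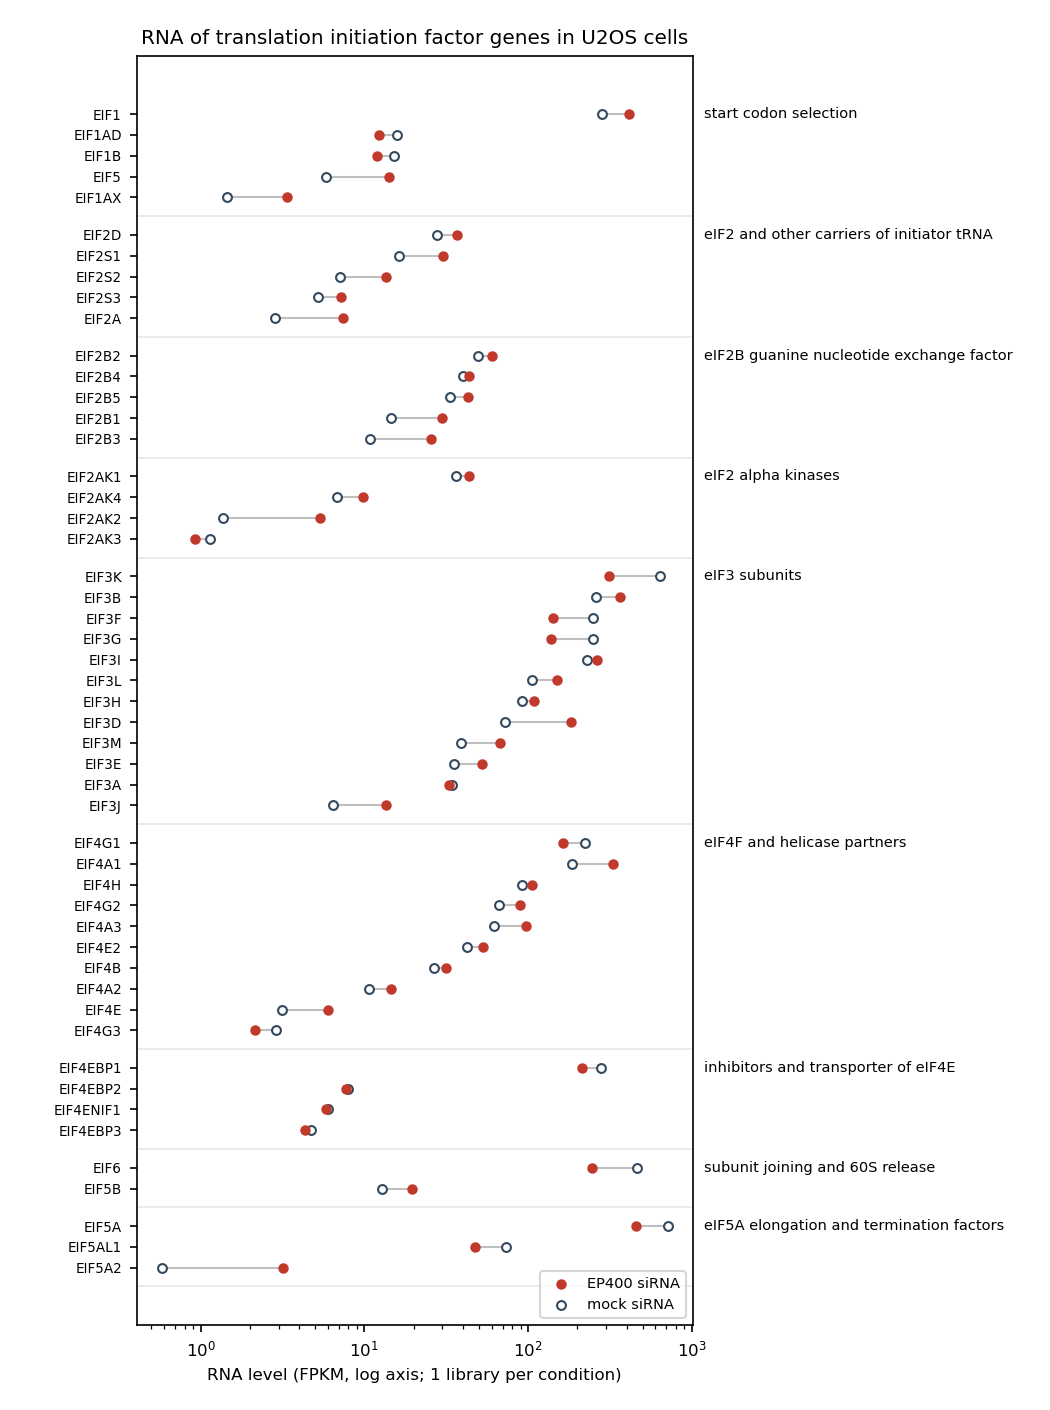
RNA level of the 50 members in FPKM on a log axis, grouped by role and sorted by mock level; filled red points are the EP400 siRNA library and open points the mock library (1 library each, so no error bars). EIF3D, EIF2AK2 and EIF5A2 show long steps to the right after EP400 siRNA, and EIF3K, EIF6 and EIF5A, among the most abundant, steps to the left.

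The difference from other genes was widest among abundant RNAs. Over all genes the median log2 ratio was 0.20 in the lowest quintile (group of equal size) of mean FPKM and -0.93 in the highest. Members in that highest quintile, 25 genes, had a median of 0.26, and 24 of them lay above the median of their quintile, EIF3K being the exception. In the next quintile the 10 members had a median of 0.39, against -0.56 over its genes, and all 10 lay above it. In the middle quintile 8 of 8 members lay above the median of its genes, and in the lower quintiles 3 of 5 and 1 of 2. Within the members, the rank correlation of the ratio with mean FPKM was -0.36 (Spearman, 50 genes), beside -0.37 over all genes, as a description of points that come from the same 2 libraries. The rank correlation with the number of loci within 500 kb was -0.34 in the members and -0.47 over all genes, and that with transcript length was 0.29 and 0.18. In the quintile of longest transcripts the 9 members had a median of -0.03, against 0.05 over its genes, and 4 of 9 lay above it. In the other quintiles of length, from the shortest up, 8 of 13, 11 of 11, 5 of 6 and 9 of 11 members did.

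**Figure D2:**
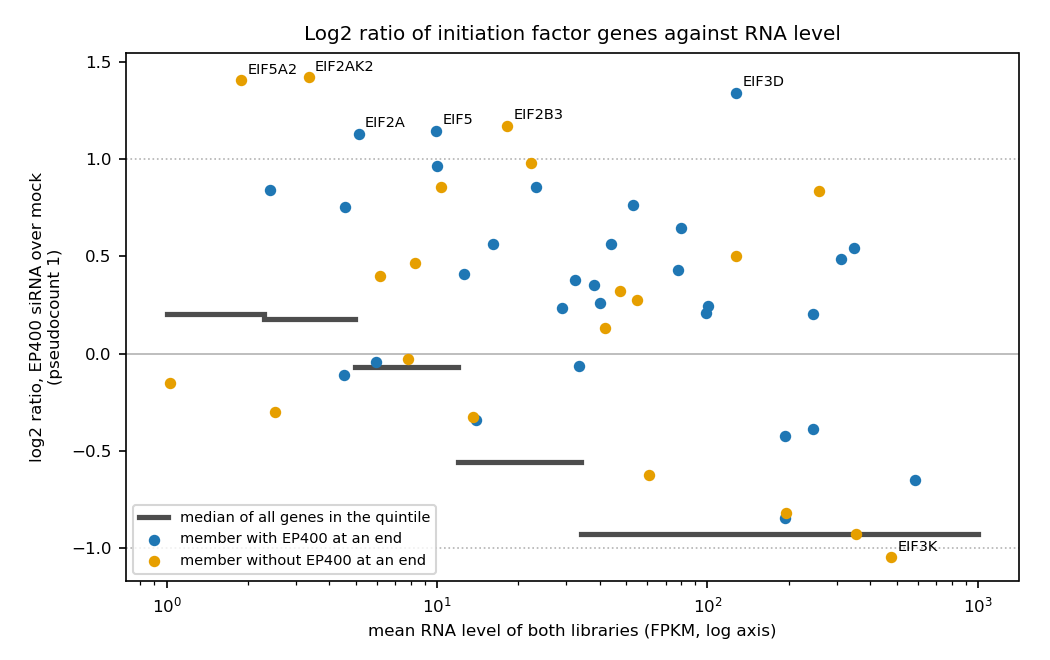
Log2 ratio of EP400 siRNA over mock (pseudocount 1) against the mean FPKM of both libraries (log axis) for the 50 members, in blue with and in orange without an EP400 peak at a locus end; horizontal bars are the medians of all genes in each quintile of mean FPKM (the highest is drawn to 1000 FPKM). Members in the 2 highest quintiles lie almost without exception above the bar of their quintile, with EIF3K below it at -1.05.

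The authors' confidence limits, summed here over the rows of a gene, set how far single genes can be read. They were wide: the upper limit lay a median of 99.6% above the FPKM of a member in the EP400 siRNA library and 98.5% above it in the mock library. The limits of the 2 libraries were apart for 0 of 50 members, and over all genes for 0.0857% (higher) and 0.129% (lower). Summing widens the limits of genes with several rows, such as EIF4G1 (8 rows, 164 FPKM with an upper limit of 825 FPKM after EP400 siRNA). The order of members by ratio is a description of 2 libraries.

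Among the factors of start codon selection, EIF1, which guards against wrong start codons, was at 413 FPKM after EP400 siRNA, against 283 FPKM in mock (log2 0.54, and 1.57 with density centring). EIF5, which activates the GTPase of eIF2, was at 14.1 FPKM after EP400 siRNA, against 5.81 FPKM in mock (log2 1.15). EIF1AX was at 3.39 FPKM after EP400 siRNA, against 1.45 FPKM in mock (log2 0.84). The paralog EIF1B did not follow EIF1: it was at 12.0 FPKM after EP400 siRNA and 15.3 FPKM in mock (log2 -0.33), a sign that turned to 0.41 with equal sums. EIF1AD, named for its likeness to eIF1A, was at 12.2 FPKM after EP400 siRNA, against 15.8 FPKM in mock (log2 -0.34, and 0.39 with equal sums). It is counted in this group by that name, and a part in start codon selection was not examined. The median of the 5 analysed genes was 0.54. EIF1AY was listed at 0 in both libraries.

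The carriers of initiator tRNA had ratios above 0 as a group, 5 of 5 as deposited (42.7% of all genes) and 5 of 5 with equal sums (64.3% of all genes). Their median was 0.86 as deposited, 1.05 with median centring, 0.79 with density centring and 1.63 with equal sums. Of the subunits of eIF2, EIF2S1 (alpha, the target of the stress kinases) was at 30.2 FPKM after EP400 siRNA, against 16.2 FPKM in mock (log2 0.86). EIF2S2 (beta) was at 13.6 FPKM after EP400 siRNA, against 7.06 FPKM in mock (log2 0.86), and EIF2S3 (gamma) at 7.16 FPKM after EP400 siRNA, against 5.20 FPKM in mock (log2 0.40). As deposited the alpha and beta subunits thus had like ratios, and the gamma subunit a smaller one. With density centring EIF2S1 was at 0.61, EIF2S2 at 0.92 and EIF2S3 at 0.15. EIF2A, a separate protein that can deliver initiator tRNA, had the largest ratio of the group as deposited. It was at 7.43 FPKM after EP400 siRNA, against 2.85 FPKM in mock (log2 1.13). With density centring EIF2A was at 0.89, below EIF2S2. EIF2D, which can do so outside the eIF2 route, was at 36.6 FPKM after EP400 siRNA, against 27.9 FPKM in mock (log2 0.38).

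The 5 subunits of eIF2B, the exchange factor that returns eIF2 to its active form, had 5 of 5 ratios above 0 as deposited (42.7% of all genes). Their median was 0.35 as deposited, 0.55 with median centring, 1.13 with density centring and 1.12 with equal sums. As deposited 1 of the 5 was 2-fold higher (6.11% of all genes), with density centring 4 (8.70%) and with equal sums 4 (31.5%). EIF2B3 (gamma) was at 25.5 FPKM after EP400 siRNA, against 10.8 FPKM in mock (log2 1.17), and EIF2B1 (alpha) at 29.8 FPKM after EP400 siRNA, against 14.6 FPKM in mock (log2 0.98). EIF2B5 (epsilon, the catalytic subunit) was at 42.8 FPKM after EP400 siRNA, against 33.3 FPKM in mock (log2 0.35). EIF2B2 and EIF2B4 stood nearer to 0 as deposited, at 0.28 and 0.13. With density centring EIF2B2 was at 0.69, EIF2B4 at 1.07 and EIF2B5 at 1.13, against 1.39 for EIF2B1 and 1.36 for EIF2B3, so the spread and the order within the complex depend on the scale.

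Of the 4 kinases of eIF2 alpha, EIF2AK2 (PKR, which senses double-stranded RNA) was at 5.34 FPKM after EP400 siRNA, against 1.36 FPKM in mock (log2 1.42). This was the highest of the 50 ratios as deposited with a pseudocount of 1, whereas EIF5A2 was higher with equal sums (2.33, against 2.29 for EIF2AK2) and EIF4A1 with density centring (1.87, against 1.18). EIF2AK1, the heme-regulated kinase, was at 43.7 FPKM after EP400 siRNA, against 36.3 FPKM in mock (log2 0.26). EIF2AK4 (GCN2, which senses uncharged tRNA) was at 9.76 FPKM after EP400 siRNA, against 6.79 FPKM in mock (log2 0.47). EIF2AK3 (PERK, in the endoplasmic reticulum) was near the filter, at 0.923 FPKM after EP400 siRNA, against 1.14 FPKM in mock (log2 -0.15, and 0.32 with equal sums).

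The eIF3 complex, the scaffold on the small subunit, held ratios far on both sides of 0 as deposited. EIF3D, a subunit known to bind the cap of some mRNAs, was at 184 FPKM after EP400 siRNA, against 71.8 FPKM in mock (log2 1.34, and 1.53 with density centring). EIF3K, a peripheral subunit, was at 311 FPKM after EP400 siRNA, against 643 FPKM in mock (log2 -1.05), a value of -0.85 after median centring, -0.28 with equal sums and -0.26 with density centring. EIF3D stood above EIF3K on each of these scales.

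EIF3F and EIF3G stood with EIF3K on the low side. EIF3F was at 141 FPKM after EP400 siRNA, against 249.8 FPKM in mock (log2 -0.82), and EIF3G at 138 FPKM after EP400 siRNA, against 249.0 FPKM in mock (log2 -0.85). With equal sums both came to within 0.1 of 0, at -0.05 and -0.08, and with density centring EIF3G came to 0.09. EIF3A was at 32.7 FPKM after EP400 siRNA, against 34.2 FPKM in mock (log2 -0.06, and 0.70 with equal sums).

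The other 7 analysed subunits were on the high side. EIF3B, an abundant core subunit, was at 364 FPKM after EP400 siRNA, against 259.6 FPKM in mock (log2 0.48), and EIF3I at 263 FPKM after EP400 siRNA, against 229 FPKM in mock (log2 0.20, and 0.98 with density centring). EIF3J, a loosely held subunit, was at 13.6 FPKM after EP400 siRNA, against 6.47 FPKM in mock (log2 0.96). This ratio passed 2-fold with its highest row alone (1.80), with median centring (1.16) and with equal sums (1.75). EIF3M, EIF3E, EIF3L and EIF3H had log2 ratios of 0.76, 0.56, 0.50 and 0.24. With density centring EIF3L was at 1.28 and EIF3H at -0.08. Over the 12 subunits analysed the median was 0.36. EIF3C and its near-identical copy EIF3CL had a failed estimate and are not compared.

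In eIF4F and its helicase partners 8 of 10 genes had a ratio above 0 as deposited (42.7% of all genes). The genes 2-fold higher numbered 0 as deposited (6.11% of all genes), 1 with median centring (10.8%), 2 with density centring (8.70%) and 6 with equal sums (31.5%). The helicase genes EIF4A1 (332 FPKM after EP400 siRNA, against 185 FPKM in mock; log2 0.84, and 1.87 with density centring) and EIF4A2 (14.5 FPKM after EP400 siRNA, against 10.7 FPKM in mock; log2 0.41) lay on the same side, as did EIF4A3, a component of the exon junction complex (97.5 FPKM after EP400 siRNA, against 61.9 FPKM in mock; log2 0.65). The cap-binding protein EIF4E was at 6.0 FPKM after EP400 siRNA, against 3.16 FPKM in mock (log2 0.75). EIF4E2, a cap-binding paralog, was at 53.0 FPKM after EP400 siRNA, against 42.2 FPKM in mock (log2 0.32). EIF4B and EIF4H, which stimulate the helicase, stood at 0.23 and 0.21. EIF4B was at 1.17 with density centring, and EIF4H was at -0.10 with its highest row alone.

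The scaffold genes stood on both sides of 0 as deposited. EIF4G1 was at 164 FPKM after EP400 siRNA, against 221 FPKM in mock (log2 -0.43), and EIF4G3 at 2.15 FPKM after EP400 siRNA, against 2.88 FPKM in mock (log2 -0.30). EIF4G2, a paralog that lacks the eIF4E binding site, was at 89.1 FPKM after EP400 siRNA, against 66.0 FPKM in mock (log2 0.43). With equal sums EIF4G1 and EIF4G3 came to 0.34 and 0.29, so their side of 0 depends on the scale.

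The inhibitors of eIF4E had 0 of 4 ratios above 0 as deposited (42.7% of all genes) and 4 of 4 with equal sums (64.3%). Their median was -0.08 as deposited, 0.12 with median centring, 0.26 with density centring and 0.62 with equal sums, so the side of 0 depends on the scale. EIF4EBP1, the most abundant of them here, was at 213 FPKM after EP400 siRNA, against 278 FPKM in mock (log2 -0.39). EIF4EBP2, EIF4EBP3 and the transporter EIF4ENIF1 were within 0.12 of 0, at -0.03, -0.11 and -0.05.

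The factors of the late steps split. EIF5B, the subunit joining GTPase, was at 19.4 FPKM after EP400 siRNA, against 12.8 FPKM in mock (log2 0.56). EIF6, which keeps the large subunit from joining early, was at 244 FPKM after EP400 siRNA, against 465 FPKM in mock (log2 -0.93, and -0.16 with equal sums). EIF5A, which helps ribosomes through difficult peptide bonds, was at 454 FPKM after EP400 siRNA, against 713 FPKM in mock (log2 -0.65, but 0.12 with equal sums and 0.38 with density centring).

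The paralog EIF5A2 stood apart from EIF5A, with 3.19 FPKM after EP400 siRNA, against 0.579 FPKM in mock (log2 1.41). The intronless copy EIF5AL1 was at 47.4 FPKM after EP400 siRNA, against 73.7 FPKM in mock (log2 -0.63, and 0.13 with equal sums), a ratio like that of EIF5A as deposited. It is near-identical to EIF5A, so its value is uncertain. No Pol II, MED26, H3.3, H2AZ, H3K18ac, H3K4me1 or EP400 peak was listed at either end of EIF5AL1.

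EP400 was listed at the genes of this family more often than at genes in general. At an end means that a peak overlaps a window reaching 2 kb to both sides of an hg19 locus end. An EP400 peak lay at an end of 30 of 50 members (60%, Wilson 95% interval 46.2 to 72.4%, counting error only), against 36.0% of all genes. In the same quintile of mock RNA level the shares were 12 of 20 members against 48.5% of genes in the highest quintile, and 10 of 13 against 39.0% in the next. Of the 33 members that share their locus with no other gene, 17 had EP400 (51.5%), against 35.5% of all such genes, so the share was lower in that subset. By role, EP400 was at 9 of 12 eIF3 subunits, 7 of 10 genes of eIF4F and its partners, 4 of 5 genes of start codon selection, 3 of 5 tRNA carriers, 3 of 4 inhibitors of eIF4E, 1 of 2 late factors (EIF5B) and 1 of 3 eIF5A genes (EIF5A). It was at 1 of 5 eIF2B subunits (EIF2B5) and 1 of 4 eIF2 alpha kinases (EIF2AK1). An end of a shared locus can belong to another gene. EIF4EBP3 shares its locus with ANKHD1, and EIF3G with PPAN and P2RY11, and each is counted through 1 peak of 50 bp. EIF3H is also counted through 1 peak of 50 bp, and its strand was not available. Whether these peaks lie at the starts of the members was not resolved. EIF1AX, EIF2A, EIF2B5, EIF3I and EIF3J are likewise counted through 1 peak of 50 bp each, and EIF4E through 2 of that width. With the wider 0.5 of the EP400 list the count was 23 of 50 members (46%), and the share of all genes with that part of the list is not given here.

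**Figure D3:**
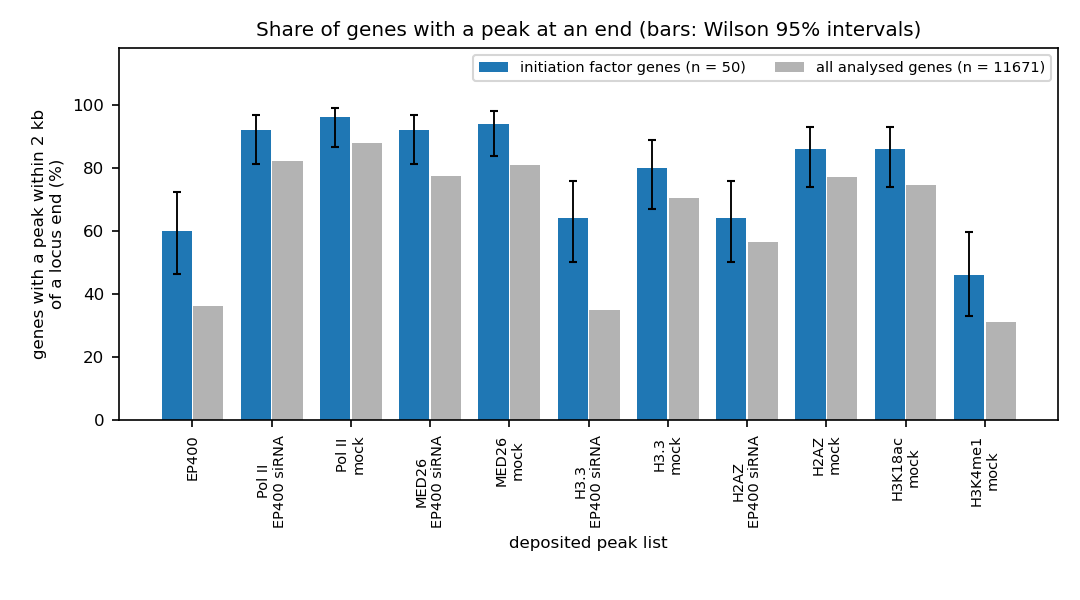
Share of genes with a peak within 2 kb of a locus end in each of the 11 deposited lists, in % (blue, the 50 members with Wilson 95% intervals; grey, all 11671 analysed genes). The blue bar stands above the grey bar in every list, with the widest gaps for H3.3 after EP400 siRNA and for EP400. The bars are not matched for RNA level, and 25 of the 50 members are in the highest quintile of mean FPKM. In that quintile mock H3.3 was at 22 of 25 members, against 89.8% of genes.

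EIF3B carried 1 of the widest EP400 peaks of the whole list. It covered 1300 bp at chr7:2393551-2394850 across the start of the gene, and only 2 of 18048 EP400 peaks were as wide or wider, itself included. EIF4G1 had a peak of 950 bp (chr3:184032201-184033150), a width reached by 10 peaks. EIF4B had 700 bp (chr12:53400351-53401050), reached by 29 peaks, and EIF4A2 600 bp (chr3:186501001-186501600), reached by 56. The median EP400 peak was 50 bp wide, the step of the list. EIF3A (350 bp) and EIF2AK1 (300 bp) followed, and all other EP400 peaks at ends of members were 250 bp or narrower. EIF2AK1 shares its locus with AIMP2 and ANKRD61, and its peaks of 300 and 250 bp lie at opposite ends of it. Which of them is at the start of EIF2AK1 was not resolved.

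Several abundant members had no EP400 peak at an end. At a mean of 20 FPKM or more these were EIF2B1, EIF2B2, EIF2B4, EIF3F, EIF3K, EIF3L, EIF4A1, EIF4E2, EIF5AL1 and EIF6. EIF4A1 held a 250 bp peak inside its locus at chr17:7476201-7476450. That locus also spans SENP3, so its ends need not be those of EIF4A1. Whether this peak lies at the start of EIF4A1 was not resolved. EIF2AK3, EIF2AK4 and EIF2B3 held peaks of 50 to 100 bp inside their loci. The RNA ratio differed little with EP400: the median was 0.39 in the 30 members with a peak and 0.30 in the 20 without, against -0.19 and -0.21 over all genes with and without.

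EP400 lay at the start and rarely at the far end of these genes. Among 26 members alone in a locus longer than 4 kb and with a known strand, 13 had EP400 at the start and 1 at the far end, against 34.5% and 4.67% of 5611 such genes. Pol II was at the start of 26 of 26 members both after EP400 siRNA (87.0% of genes) and in mock (93.2%). H2AZ was at the start of 18 members after EP400 siRNA (62.2%) and 24 in mock (83.8%), and at the far end of 0 (2.30% and 5.17%). H3.3 had another layout, with 10 starts and 11 far ends after EP400 siRNA (23.5% and 21.0%), against 20 starts and 11 far ends in mock (65.0% and 36.0%). The count of starts with H3.3 was thus lower after EP400 siRNA by 10. The count of far ends was equal, but the genes differed. EIF2B2, EIF3K, EIF4A3 and EIF6 had a far-end peak in mock alone, and EIF2D, EIF3F, EIF4E and EIF5B after EP400 siRNA alone. Without the limit on locus length there were 28 such members. Their H3.3 peaks nearest the far end covered 7400 bp after EP400 siRNA, against 22600 bp in mock. Those nearest the start covered 3200 bp after EP400 siRNA, against 11900 bp in mock.

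**Figure D4:**
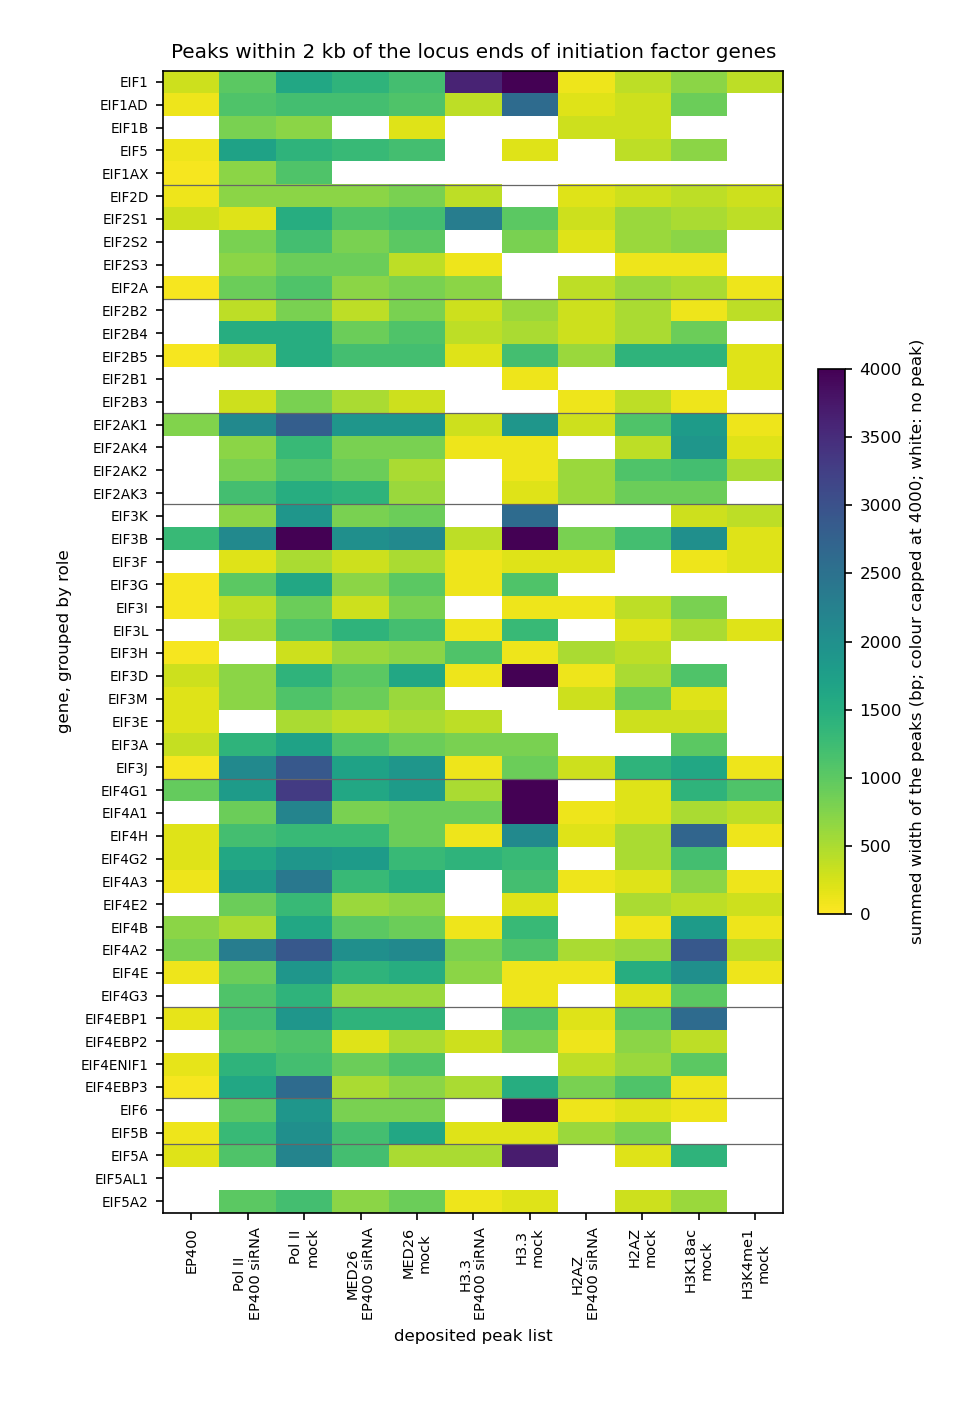
Peaks within 2 kb of the locus ends of the 50 members in 11 lists; rows are genes grouped by role, columns are lists with EP400 siRNA left of mock, and colour gives the summed width of the peaks in bp (capped at 4000; white, no peak). Pol II and MED26 fill nearly every row in both conditions, while H3.3 and H2AZ columns are paler or white in more rows after EP400 siRNA.

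Pol II and MED26 stayed listed at nearly all members. Pol II was at an end of 46 of 50 members after EP400 siRNA (82.2% of all genes), against 48 in mock (88.0%), with 46 in both lists (81.3%) and 2 in mock alone (6.70%). These were EIF3E and EIF3H, whose mock Pol II peaks, of 500 and 300 bp, were among the narrowest of the members. A mock Pol II peak overlapped a Pol II peak after EP400 siRNA at 46 of 48 members (91.8% of genes). MED26, a Mediator subunit that recruits elongation factors, was at 46 members after EP400 siRNA (77.4%) and 47 in mock (80.8%), with 46 in both (74.7%), and was kept at 46 of 47 (87.7%). EIF1B had it in mock alone (6.10%).

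What differed for Pol II was covered length, in the members much as over all genes. In the 46 members with Pol II in both lists the peaks at the ends covered a median of 1000 bp after EP400 siRNA and 1450 bp in mock. The length was lower after EP400 siRNA at 41 of 46 (89.1%), against 85.1% of all genes, a share near the background. It was higher at EIF1B, EIF4ENIF1 and EIF5. For MED26 the medians were 900 bp in both conditions, with less length after EP400 siRNA at 26 of 46 (62.4%). The whole Pol II list was also shorter after EP400 siRNA, with 20987 peaks against 30760 in mock. The lists hold no depth or enrichment, on which peak numbers and widths depend, and their part was not tested.

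H3.3, the variant laid down outside replication, was listed at an end of 32 of 50 members after EP400 siRNA, against 34.9% of all genes. In mock it was at 40 of 50, against 70.3%. The members were therefore closer to other genes in mock cells than after EP400 siRNA. In the highest quintile of mean FPKM H3.3 was at 17 of 25 members after EP400 siRNA (43.6% of genes) and 22 of 25 in mock (89.8%). Both lists had H3.3 at 28 members (29.3%), mock alone at 12 (41.0%) and EP400 siRNA alone at 4 (5.57%), which were EIF2A, EIF2D, EIF2S3 and EIF3E. The whole H3.3 list had 41439 peaks after EP400 siRNA and 79838 in mock.

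A mock H3.3 peak at an end overlapped an H3.3 peak after EP400 siRNA at 13 of 40 members, against 19.4% of all genes. These were EIF1, EIF1AD, EIF2B5, EIF3B, EIF3D, EIF3G, EIF4A1, EIF4A2, EIF4B, EIF4EBP2, EIF4EBP3, EIF4G1 and EIF5A. With EP400 at an end the count was 11 of 24 (26.7% of all genes), and without it 2 of 16 (13.8%), a difference in the same direction as over all genes that was not tested. In the 28 members with H3.3 in both lists the peaks covered a median of 350 bp after EP400 siRNA and 1150 bp in mock, with less length at 21 (75.0% of genes). EIF2S1, EIF3H, EIF4E and EIF4G2 had more.

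At EIF1 the widest H3.3 peak overlapped the far end of the gene in both lists. It was 3300 bp after EP400 siRNA (chr17:39846101-39849400) and 5900 bp in mock (chr17:39847301-39853200), and both began inside the gene (chr17:39845127-39847898, plus strand), that after EP400 siRNA further from its far end. The mock list also held peaks of 400 and 800 bp at the start. In the EP400 siRNA list 17 peaks were as wide or wider, itself included, and in the mock list 7. EIF4G1 had a 500 bp peak after EP400 siRNA and a 3600 bp peak in mock at its far end. EIF3K, EIF6, EIF5 and 9 others had H3.3 at an end in mock alone.

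Over whole loci, a comparison added after the lists were seen, the members split more evenly than other genes. Of 48 members with an H3.3 peak anywhere within 2 kb of the locus, 26 had less covered length after EP400 siRNA (73.4% of 10147 genes) and 18 had more (24.1%). Summed over these members, H3.3 covered 61400 bp after EP400 siRNA and 112900 bp in mock. EIF3B had the largest difference in length among the members, with 6 peaks covering 1500 bp after EP400 siRNA, against 24 peaks covering 16100 bp in mock that ran along the whole gene. EIF4G1 had 1500 bp after EP400 siRNA, against 10500 bp in mock. The locus that EIF2AK1 shares with AIMP2 and ANKRD61 had 1700 bp after EP400 siRNA, against 9400 bp in mock. EIF6 had no peak after EP400 siRNA, against 4300 bp in mock.

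EIF4A2 stood on the other side. H3.3 covered 8900 bp over its locus after EP400 siRNA, against 4300 bp in mock. A peak of 7800 bp at chr3:186503601-186511400, inside that locus, was the widest of all 41439 H3.3 peaks after EP400 siRNA. In mock the same stretch held 2 separate peaks of 2200 and 800 bp. EP400 peaks of 50 bp lay at 2 places within it. The locus also spans RFC4 and the small nucleolar RNA genes SNORA4, SNORA63, SNORA81 and SNORD2. How much of the 7800 bp peak lies in EIF4A2 and how much in RFC4 was not resolved.

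EIF3E and EIF3H, both on chromosome 8, also had more H3.3 after EP400 siRNA. EIF3E had 14 peaks covering 2100 bp after EP400 siRNA, against no peak in mock. EIF3H had 18 peaks covering 3400 bp after EP400 siRNA, against 1 peak of 100 bp in mock. Most of these peaks were 100 bp wide, the smallest step of the list. They are the same 2 genes that had Pol II at an end in mock alone. EIF2S1 (5600 bp after EP400 siRNA, against 1500 bp in mock) and EIF4E (4200 bp after EP400 siRNA, against 1500 bp in mock) had more H3.3 as well.

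**Figure D5:**
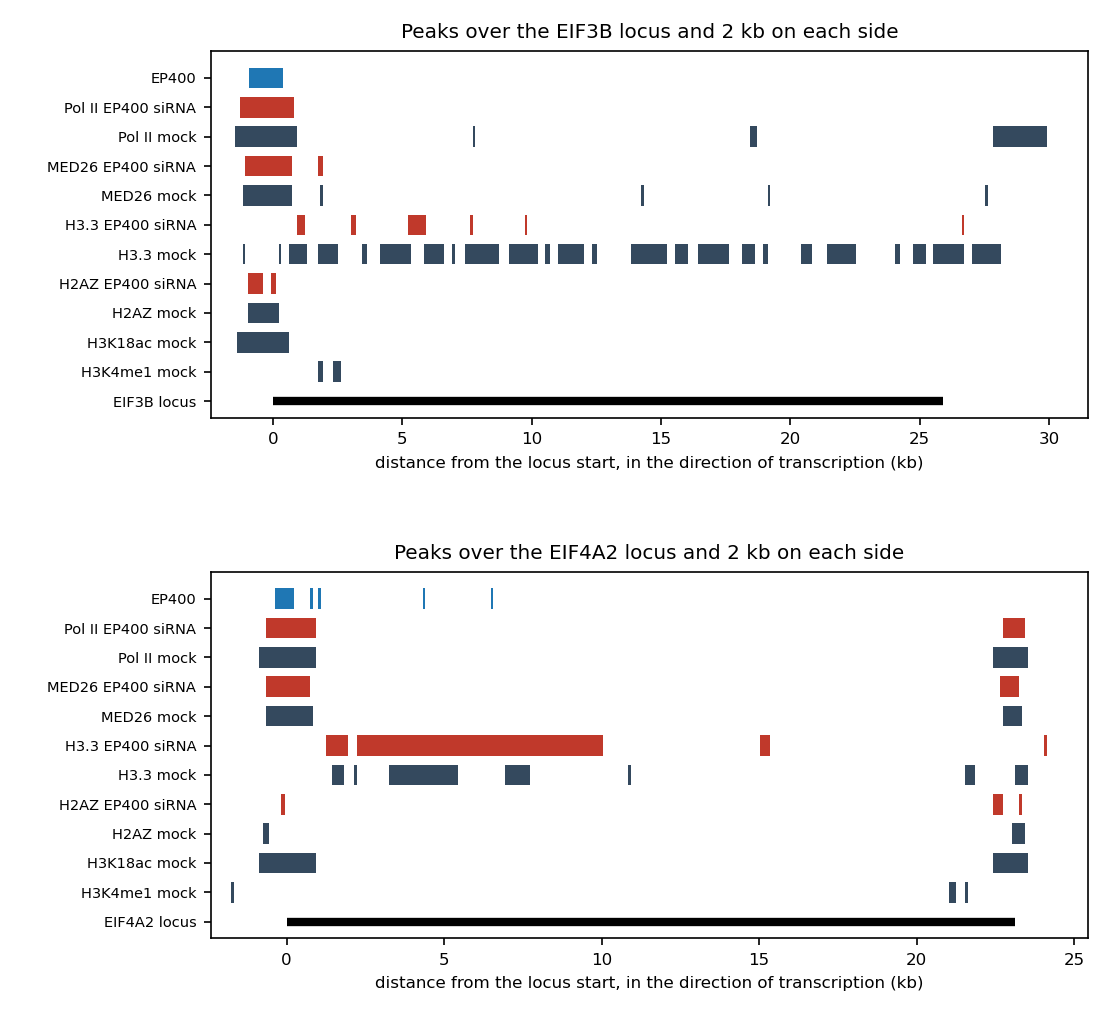
Peaks of 11 lists over the EIF3B locus (top) and the EIF4A2 locus (bottom) with 2 kb on each side; the horizontal axis is the distance from the locus start in kb along the direction of transcription, each bar is 1 peak (red, EP400 siRNA; dark, mock; blue, EP400) and the black line is the locus. H3.3 bars run along the whole of EIF3B in mock and cover 6 short stretches after EP400 siRNA. The EIF4A2 locus, which also spans RFC4, has 1 bar of 7800 bp after EP400 siRNA.

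H2AZ, the variant that marks the nucleosomes around starts, was at an end of 32 of 50 members after EP400 siRNA (56.5% of all genes) and 43 in mock (77.2%). It was in both lists at 31 members (55.0%), in mock alone at 12 (22.2%) and after EP400 siRNA alone at 1, EIF3F (1.53%). A mock peak was kept at 29 of 43 members, against 63.4% of all genes, a share near the background. In the 31 members with H2AZ in both lists the peaks covered a median of 300 bp after EP400 siRNA and 600 bp in mock, with less length at 29 (83.4%). EIF4B and EIF4G1, which held wide EP400 peaks, were among the 12 with H2AZ in mock alone, while EIF3B kept 800 bp, against 1200 bp in mock.

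In mock cells H3K18ac, an acetylation of active promoters and enhancers, was at an end of 43 of 50 members, against 74.6% of all genes. H3K4me1, known from enhancers and the flanks of promoters, was at 23 of 50, against 31.0%. In the highest quintile of mean FPKM H3K18ac was at 22 of 25 members (85.6% of genes) and H3K4me1 at 13 of 25 (45.0%). The 7 members without H3K18ac were EIF1AX, EIF1B, EIF2B1, EIF3G, EIF3H, EIF5AL1 and EIF5B. EIF2B1 shares its locus with GTF2H3, and its Pol II and MED26 peaks (900 bp at chr12:124117901-124118800 for Pol II in both conditions) lay inside that joint locus and not at its ends. The ends of EIF1B are those of a locus shared with MYRIP, which likewise bears on its counts.

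Related genes give the setting of the members. Of 10 genes of the integrated stress response, which phosphorylated eIF2 alpha sets off, the median log2 ratio was 0.77. As deposited 3 were 2-fold higher (6.11% of all genes) and 0 lower (22.9%), and 5, 5 and 8 were 2-fold higher with median centring (10.8%), density centring (8.70%) and equal sums (31.5%). DDIT3 (CHOP) was at 32.8 FPKM after EP400 siRNA, against 6.97 FPKM in mock (log2 2.09), and ASNS, asparagine synthetase, at 41.7 FPKM after EP400 siRNA, against 10.6 FPKM in mock (log2 1.88). ATF4, the factor translated when eIF2 is limiting, was at 403 FPKM after EP400 siRNA, against 196 FPKM in mock (log2 1.04), and CHAC1 at 23.4 FPKM after EP400 siRNA, against 11.9 FPKM in mock (log2 0.91). TRIB3, SESN2 and CEBPB, targets or partners of ATF4, stood at 0.23, -0.06 and -0.19.

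Genes that signal from mTOR and MNK to the cap complex had a median of -0.59 as deposited. Of the 10 genes, 4 were 2-fold lower (22.9% of all genes) and 0 higher (6.11%), 3 had a ratio above 0 (42.7%), and LARP1, an RNA-binding target of mTOR, was the highest at 0.38. With density centring 1 was 2-fold lower (10.9%). MLST8, a subunit of the mTOR complexes, was at 66.9 FPKM after EP400 siRNA, against 185 FPKM in mock (log2 -1.45). RPS6KB2, a ribosomal protein S6 kinase, was at 30.1 FPKM after EP400 siRNA, against 76.8 FPKM in mock (log2 -1.32), AKT1S1 at 64.2 FPKM after EP400 siRNA, against 155 FPKM in mock (log2 -1.26), and MKNK2, which phosphorylates eIF4E, at 20.6 FPKM after EP400 siRNA, against 50.2 FPKM in mock (log2 -1.25). With equal sums 0 of these 10 genes were 2-fold lower and the median was 0.01, against 0.48 over all genes, so they stayed below the median of the table. MTOR and RPS6KB1 were at -0.18 and 0.14.

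The elongation and termination list held ratios on both sides, with a median of 0.21. Of the 12 genes, 2 were 2-fold higher (6.11% of all genes) and 2 lower (22.9%). ETF1, the release factor that reads stop codons, was at 19.7 FPKM after EP400 siRNA, against 5.82 FPKM in mock (log2 1.60), and ABCE1, which splits ribosomes, at 6.43 FPKM after EP400 siRNA, against 2.02 FPKM in mock (log2 1.30). EEF1A2, an elongation factor paralog, was at 189 FPKM after EP400 siRNA, against 579 FPKM in mock (log2 -1.61), and EEF1D at 536 FPKM after EP400 siRNA, against 1104 FPKM in mock (log2 -1.04). With equal sums 0 of the 12 were 2-fold lower.

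Genes of poly(A) binding and other helpers of initiation had a median of 0.32 as deposited over 10 analysed genes, 0 of them 2-fold higher (6.11% of all genes) or lower (22.9%). With equal sums 5 were 2-fold higher (31.5%). DENR, which acts in reinitiation, had the largest ratio, with 9.72 FPKM after EP400 siRNA, against 4.96 FPKM in mock (log2 0.85), followed by the helicase DDX3X (log2 0.67), PAIP1 (0.53) and PAIP2 (0.46). Of 6 mitochondrial initiation and elongation genes, MTIF2 (log2 1.26), GFM2 (1.21) and GFM1 (1.03) were 2-fold higher (6.11% of all genes) and TUFM, the most abundant, 2-fold lower (22.9%), with 159 FPKM after EP400 siRNA, against 349 FPKM in mock (log2 -1.13, and -0.36 with equal sums).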

How the data were processed

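The samples were 19 libraries of U2OS cells. FPKM with lower and upper confidence limits and a status per library were deposited by the authors for 48669 transcript rows. The submitters' processing notes name the hg19 build, Cuffdiff 2.0.2, TopHat2 2.0.8 and Bowtie 0.12.9. For annotation, peak caller and peak threshold, nothing is given in the sources used here. Deposited peak lists give a position per peak and neither score nor height. Positions move by 50 bp in the EP400 list and by 100 bp elsewhere, and X and Y, named 23 and 24 there, were mapped back. The 3 EP400 immunoprecipitations came as 1 list, and the inputs were not analysed here. A list of blood cell markers is not reported here.

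Symbols were matched to 47555 rows (97.7%) by RefSeq accession. Rows under 200 nt (2116) were left out, FPKM and their limits were summed per gene, and 122 genes with a failed estimate and genes with a mean under 1 FPKM were dropped. Among the members, EIF3C and EIF3CL failed, and EIF1AY, EIF4E1B and EIF4E3 were below the filter. Of the 50 analysed, 17 share a locus with other genes. The strand of 46 members came from the RefSeq promoter table (GRCh38.p14). The start of a locus was counted from 0 in the file and moved to 1. A mock peak was kept where a peak after EP400 siRNA overlapped it by at least 1 bp. Other pseudocounts, filters, scalings, windows, peak widths and row choices were tried. The members and gene lists were chosen with earlier results of these data known.

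Named members had a 2-fold ratio, 1 of the 8 highest mean FPKM, 1 of the 6 widest EP400 peaks, no EP400 peak at 20 FPKM or more, H3.3 in both lists, or Pol II in mock alone; others complete a complex or a paralog pair. Those singled out for H3.3 over whole loci were chosen after their values were seen. The scripts used Python 3.11.15, pandas 2.3.3 and matplotlib 3.10.9, and were checked on simulated data.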

Additional observations from a re-analysis of the deposited data

How the results depend on the processing

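No ratio of 2-fold size changed sign in the alternatives run. Of the 40 members that met a naming rule, 11 smaller ratios changed sign in at least 1 alternative. These were EIF1AD, EIF3A, EIF3G, EIF3H, EIF4EBP1, EIF4EBP2, EIF4EBP3, EIF4G1, EIF5A and EIF5AL1 on another scale and EIF4H with its highest row alone. EIF1B, EIF2AK3, EIF4G3 and EIF4ENIF1, named to complete a complex or a paralog pair, also changed sign with equal sums. Of 113 summary values, 96 stayed within their limits. The median log2 ratio (0.37) was 0.56 after centring by local gene density, 0.57 after median centring and 1.13 with equal sums. The count of 2-fold higher members (6) was 12, 12 and 30 on these scales, and that of 2-fold lower members (1) was 0, 0 and 0, and 2 both with failed estimates kept and with the highest row of each gene alone. Members whose H3.3 was kept (13) numbered 28 when any peak in the same ends counted. With the wider 0.5 of each list, EP400 was at 23 members (30 with all peaks) and H3.3 after EP400 siRNA at 21 (32). On the same setting H3K18ac was at 28 (43) and H3K4me1 at 14 (23). H3K4me1 within 1 kb, with all peaks, was at 8. EP400 was at 17 of the 33 members alone in their locus. Density centring and the locus subset were chosen after seeing the data. The cause of these moves was not tested beyond what each setting leaves out. Depth is unknown and there was 1 library per condition. No paired analysis was possible because each compared condition had 1 library and the 3 EP400 immunoprecipitations came as 1 list.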
